A study of Bos taurus with 20 samples.

Results

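A set of 9 genes was followed in the blood of pregnant cows, namely PARP1, PARP2, PARP3, PARP8, PARP9, PARP10, PARP12, PARP14 and DTX3L. They were chosen by symbol, and all 9 were found among the 37063 genes counted, through the NCBI table of cattle genes. Of the 9, PARP9, DTX3L, PARP14, PARP10 and PARP12 are taken as the 5 interferon-type members, PARP1, PARP2 and PARP3 as the 3 repair-type members, and PARP8 stands apart. The question was whether the members of each type moved together from cow to cow, and whether either type followed the weight of the calf at birth (calf BW).

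PARP enzymes take ADP-ribose from NAD and attach it to proteins and nucleic acids, either as single units or as chains. PARP1 and PARP2 bind broken DNA and build chains that call repair factors to the break, and PARP3 also acts at breaks. PARP10, PARP12 and PARP14 attach single units and belong, with PARP9 and its partner DTX3L, a ubiquitin ligase, to the genes that cells switch on when interferon binds its receptor. In ruminants the early conceptus secretes interferon tau, to which circulating leukocytes respond with the same kind of genes, before the stage of pregnancy sampled here.

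The samples were whole blood from 20 recipient cows, 1 library per cow, drawn at day 63 of gestation into Tempus tubes, which lyse the cells and stabilize RNA. Each cow carried a female calf from an in vitro produced embryo, made with an oocyte of an Angus beef donor and sex-sorted semen, so that all cows formed 1 group, and BW is the variable in which their labels differ. The recipients are lactating dairy cows in the account of the transfers but Angus in the overview of samples, and they differed in age, which the labels do not give and the fits could not include. Calf BW ranged from 30 to 72.5 kg and differed in every cow, so each cow is named by the weight of the calf it bore: the 30 kg cow is the one whose calf weighed 30 kg. The 72.5 kg calf was treated in the study as an outlier for BW, and slopes on BW were computed in the other 19 cows, whose calves weighed up to 56 kg. Total counts were between 24632077 and 39892111 per cow. In whole blood, fewer cells of a type and less RNA per cell cannot be told apart.

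One library stood apart before any result. In the library of the 39 kg cow, 0 of 16269 genes had their highest level of the 20 cows, whereas in every other library 442 to 1566 genes did. When each library was fitted as a weighted sum of the other 19, the chi-square per gene was between 20.7 and 106 for the other libraries but 0.219 for that of the 39 kg cow, where counting noise alone would give about 1. The fit gave 9.75% to 11.9% of it to each of the 9 cows with calves of 30 to 43 kg, and at most 0.693% to any other cow. The plain mean of these 9 libraries in counts per 1000000 (CPM) matched it with a chi-square per gene of 0.247 over 11636 genes, and 99% of these genes were within 5%. PARP14, for instance, was at 445.7 CPM in this library and at 446.2 in the mean of the 9.

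**Figure D1:**
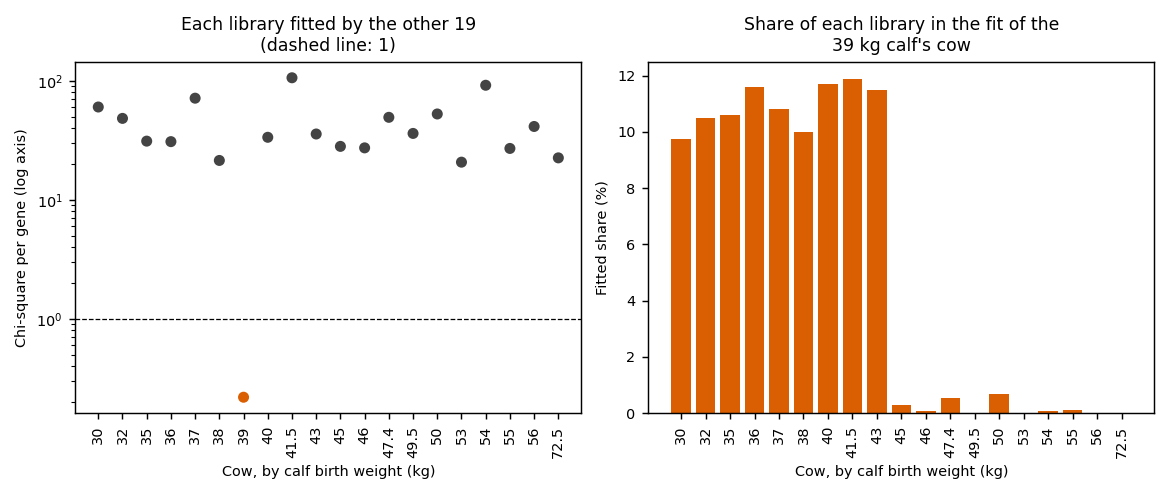
Left, chi-square per gene (log axis) when each cow's library was fitted by the other 19, with cows ordered by calf BW in kg; the library of the 39 kg cow is at 0.219 and the others are at 20.7 or above. Right, the share in percent of each other library in the fit of the 39 kg cow, near 10% in the 9 cows of calves up to 43 kg and at most 0.693% elsewhere.

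This was noticed after the data were seen. The 9 cows were read from the fitted shares, and 9 ways of averaging them were compared: the mean of counts gave 0.336 and of counts divided by size factors 0.253, while medians gave 10.6 to 14 and geometric means 5.34. The values thus match an average of other cows more closely than counting noise in a separate library would allow, and how this arose was not tested. The library is kept and counted in n below, as the design had fixed, and calls among members, the closest pairs and the slopes on BW are also given without it.

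Levels are given in CPM scaled by TMM. The number of counts also depends on the length of a transcript, which was not available here, so levels are compared between cows and not between genes. The 5 interferon-type members shared 1 feature: each had its highest level in the 30 kg cow, as did 5.98% of all genes.

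PARP14, which also carries domains that bind ADP-ribose, was at 680.2 CPM in that cow, against a lowest of 336.1, a median of 401.8 and a highest of 468.4 CPM in the other 19. DTX3L was at 220.4 CPM there, and its lowest, median and highest levels elsewhere were 101.5, 126.1 and 159.2 CPM. PARP12, which sits with stress granules and the Golgi, was at 313.5 CPM there and at 144.8, 177.2 and 215.3 CPM elsewhere. In these 3 genes the 30 kg cow lay far outside the range of the others, at 1.693, 1.748 and 1.77 times their median, in that order.

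PARP10, known for attaching single ADP-ribose units, was at 122.2 CPM in the 30 kg cow, and elsewhere its lowest, median and highest levels were 60.42, 73.46 and 80.56 CPM. PARP9, which forms a complex with DTX3L, was at 146.4 CPM there and at 102.6, 114.3 and 142.4 CPM elsewhere. PARP10 thus stood apart like the 3 genes above, whereas for PARP9 the 37 kg cow came close. Without the 30 kg cow the coefficient of variation fell from 19.06% to 11.19% for DTX3L, from 18.05% to 10.5% for PARP14, from 17.95% to 9.578% for PARP10, from 19.43% to 10.39% for PARP12 and from 10.15% to 8.833% for PARP9. The counting error alone was 0.8715% to 2.049% in these 5 genes.

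**Figure D2:**
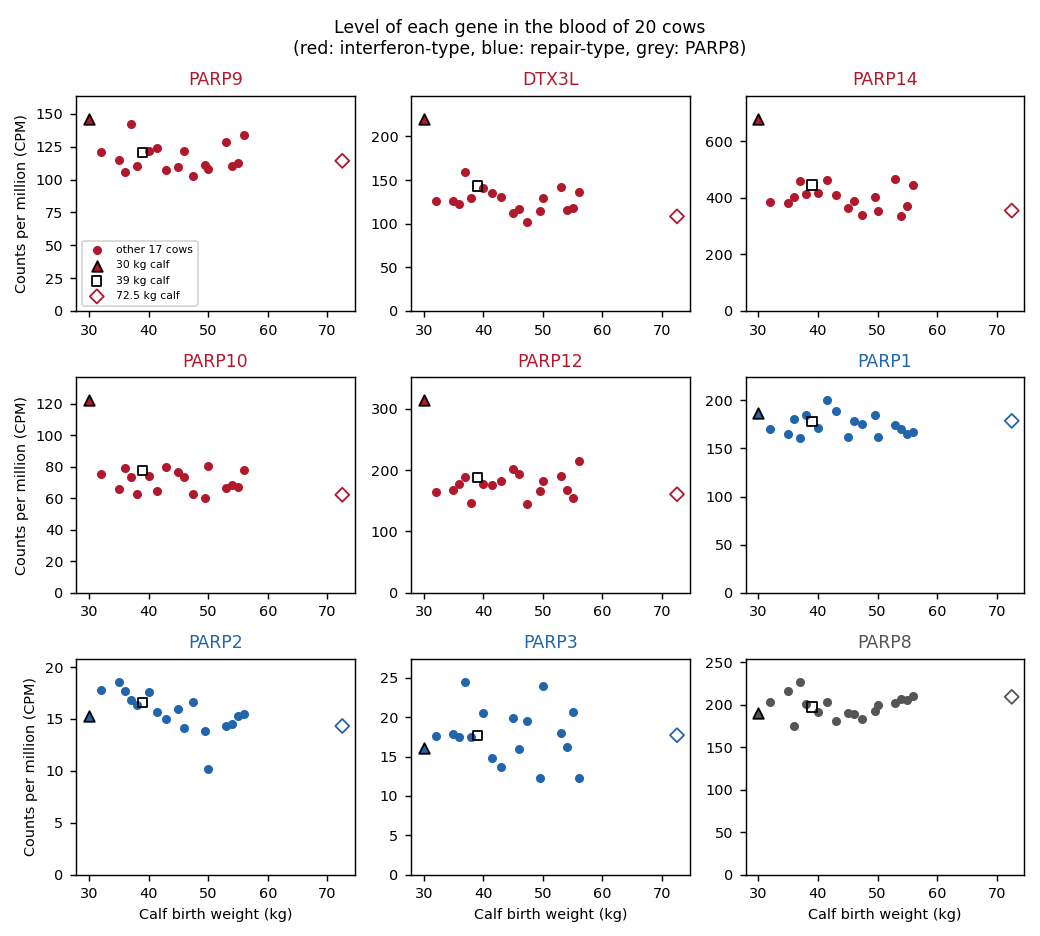
Level of each member in CPM against calf BW in kg, 1 point per cow and 20 cows in each panel, with axes that start at 0. The triangle (30 kg calf) is the highest point for the 5 interferon-type members in red, at 680.2 CPM for PARP14, and lies within the range for the repair-type members in blue and PARP8 in grey.

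The repair-type members did not share this feature. PARP1, the main sensor of single-strand breaks, was among the steadiest genes in blood, with a lowest of 160.8, a median of 175 and a highest of 199.8 CPM and a coefficient of variation of 5.952%. Only 5.85% of genes had a smaller SD on the log2 scale. PARP2 ranged from 10.2 CPM in the 50 kg cow to 18.54 CPM in that of the 35 kg calf, with a median of 15.57 CPM.

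PARP3 ranged from 12.24 to 24.46 CPM with a median of 17.67 CPM. The 30 kg cow ranked 3rd from the top for PARP1, 12th for PARP2 and 15th for PARP3. PARP8, a less studied mono-ADP-ribosylating enzyme, was as steady as PARP1, at 174.5 to 226.4 CPM with a median of 200.4 CPM and a coefficient of variation of 6.335%. PARP2 and PARP3 rested on 316 to 830 counts per cow, which gives a counting error of 4.346% and 4.211%.

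Next, each member was used as the explanatory variable for all other genes across the 20 cows, by the quasi-likelihood test of edgeR, with FDRs over all genes. Of the 10 pairs among interferon-type members, 7 had an FDR below 0.05 in both directions of the fit, where 0.215% of all genes were called with PARP9, 0.609% with DTX3L, 0.621% with PARP14, 0.658% with PARP10 and 0.504% with PARP12. Of the 15 pairs between the types, 0 were called, as were 0 of the 3 pairs among repair-type members and 0 of the 8 pairs with PARP8. With PARP1, PARP2, PARP3 and PARP8, 0.805%, 0.0615%, 0.00615% and 0.166% of genes were called. Without the 30 kg cow these shares were 0.469%, 0.13%, 0.00617% and 0.216%. Leaving out the 39 kg cow instead, they were 0.412%, 0.0616%, 0% and 0.222%. The median Spearman correlation was 0.529 among interferon-type pairs and -0.0226 between the types.

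The interferon-type pairs were not alike. DTX3L and PARP14 had Pearson r = 0.927 (permutation p = 1e-05, the smallest the resamples allow) and Spearman rho = 0.838 (permutation p = 2e-05), and an edgeR FDR of 5.614e-07 for PARP14 on DTX3L. PARP9, DTX3L and PARP14 lie side by side in the ARS-UCD2.0 annotation. PARP9 overlaps DTX3L, PARP14 overlaps HSPBAP1 and PARP3 overlaps RRP9, and the strand setting of the counting is not given, so that reads in these overlaps could be split between the genes. PARP9 had Spearman correlations of 0.663 with DTX3L and 0.707 with PARP14 (permutation p = 0.00178 and 0.00068).

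PARP10 and PARP12, which lie elsewhere in the genome, had the next highest Pearson correlation after DTX3L with PARP14, with Pearson r = 0.879 (permutation p = 2e-05) and Spearman rho = 0.674 (permutation p = 0.00142). PARP9 and PARP10 had Pearson r = 0.487 (permutation p = 0.0305) but Spearman rho of only 0.0677 (permutation p = 0.776). Adjusted over the 36 pairs by the Benjamini-Hochberg method, the Spearman p-values were 0.00072 for DTX3L with PARP14, 0.0128 for PARP10 with PARP12 and 0.924 for PARP9 with PARP10. Without the 2 cows farthest from the median, the Pearson correlations of these 3 pairs were 0.80, 0.687 and 0.106.

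Without the 30 kg cow, 1 of the 10 interferon-type pairs was called in both directions, DTX3L with PARP14, with Spearman rho = 0.81 (permutation p = 8e-05) and edgeR FDRs of 0.009572 and 0.02468. The share of all genes called was then 0.0308% with PARP9, 0.185% with DTX3L, 0.0247% with PARP14, 0.0308% with PARP10 and 0.0123% with PARP12. The median Spearman correlation of the 10 pairs was 0.45 without this cow. The rank correlations of 4 interferon-type pairs had an adjusted permutation p below 0.05 over the 36 pairs with it and without it. Without it, Spearman rho was 0.619 for PARP10 with PARP12, 0.658 for PARP9 with PARP14 and 0.607 for PARP9 with DTX3L, with adjusted permutation p-values of 0.0482, 0.0392 and 0.0482, and 0.00288 for DTX3L with PARP14. Leaving out the 39 kg cow, 7 pairs were called, with 0.172%, 0.597%, 0.517%, 0.609% and 0.499% of all genes for the same 5 members. Leaving out both cows, 0 pairs were called, with 0.0185%, 0.0988%, 0.00618%, 0.0432% and 0.0247% of all genes, DTX3L and PARP14 then having an FDR of 0.02988 in one direction and 0.08193 in the other. Without the 39 kg cow Spearman rho was 0.823 for DTX3L with PARP14, 0.693 for PARP9 with PARP14, 0.661 for PARP9 with DTX3L and 0.69 for PARP10 with PARP12 (permutation p = 7e-05, 0.0013, 0.00262 and 0.00151).

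Among its 8 pairs PARP8 had the highest correlation with PARP9 and the lowest with PARP1 (Spearman rho = -0.472). With PARP9 it had Pearson r = 0.455 and Spearman rho = 0.472 in 20 cows (adjusted permutation p = 0.136 and 0.121 over 36 pairs). When the 30 kg cow was left out, Pearson r was 0.629 (adjusted permutation p = 0.0284) and Spearman rho 0.586 (adjusted permutation p = 0.0545), while the edgeR FDRs were 0.3287 and 0.2125.

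Among repair-type members, PARP1 and PARP3 went in opposite directions. PARP3 was highest in the 37 kg and 50 kg cows, at 24.46 and 23.96 CPM, where PARP1 was at 160.8 and 161.7 CPM, among its lowest. Their Pearson correlation was -0.601 (permutation p = 0.00493) and their Spearman correlation -0.714 (permutation p = 0.00059), or 0.0197 and 0.00816 after adjustment over 36 pairs. In the edgeR fit over all genes this pair did not reach the threshold, with an FDR of 0.0944 for PARP3 on PARP1. Spearman rho was -0.705 when the 30 kg cow was left out and -0.716 when the 39 kg cow was (permutation p = 0.00082), and Pearson r was -0.523 when the 2 farthest cows were.

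**Figure D3:**
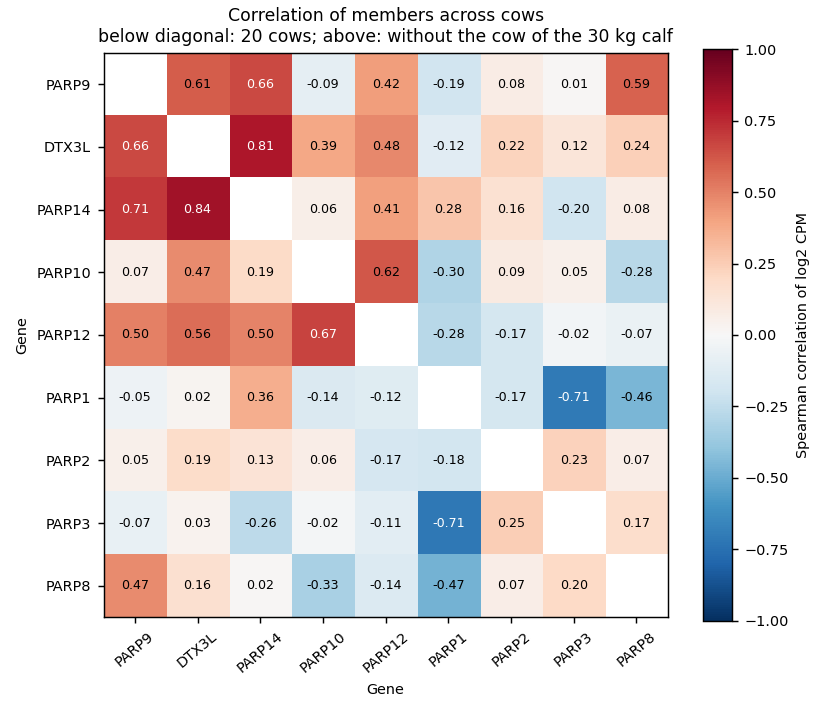
Spearman correlation of log2 CPM for each pair of the 9 genes, in 20 cows below the diagonal and in 19 cows, without that of the 30 kg calf, above it. The block at the upper left holds the interferon-type pairs, from 0.07 for PARP9 and PARP10 to 0.84 for DTX3L and PARP14 in 20 cows. Without the 30 kg cow these 2 pairs are at -0.09 and 0.81. The blue cell of PARP1 and PARP3 is at -0.71 in both.

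Monocyte markers moved with PARP3 and B cell markers with PARP1, with an adjusted p below 0.05 for the Pearson but not the Spearman correlation. The summed CPM of 8 monocyte markers, whose most abundant gene was LYZ, had a Pearson correlation of 0.707 with PARP3 (permutation p = 0.00057, adjusted p = 0.0374 over 90 relations) and Spearman rho = 0.644 (permutation p = 0.00268, adjusted p = 0.121). The summed CPM of 8 B cell markers, led by MS4A1, had Pearson r = 0.694 with PARP1 (permutation p = 0.00083, adjusted p = 0.0374) and Spearman rho = 0.716 (permutation p = 0.00068, adjusted p = 0.0612). Without the 2 cows farthest from the median, the Pearson correlations were 0.511 and 0.734. None of the other relations between marker lists and members had an adjusted p below 0.1, and the part of cell composition in the opposite course of PARP1 and PARP3 was not tested.

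The interferon-type members were then set beside 36 other interferon-stimulated genes that passed the count filter. Their mean z-score had a Pearson correlation of 0.932 with DTX3L (permutation p = 1e-05), 0.895 with PARP14 (permutation p = 3e-05), 0.896 with PARP12 (permutation p = 5e-05), 0.883 with PARP10 (permutation p = 0.00011) and 0.662 with PARP9 (permutation p = 0.00081). The Spearman correlations were 0.881, 0.762, 0.72, 0.668 and 0.474, with permutation p-values of 1e-05, 0.00018, 0.00057, 0.00168 and 0.0365. Adjusted over the 9 members, the Spearman p was at most 0.00378 for the first 4 of these genes and 0.0657 for PARP9. For PARP1, PARP2, PARP3 and PARP8 the Pearson correlation was between -0.128 and 0.192, with adjusted permutation p-values of at least 0.641.

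Without the 30 kg cow, the Spearman correlation with the 36 genes was 0.861 for DTX3L, 0.723 for PARP14, 0.674 for PARP12 and 0.612 for PARP10, with permutation p-values adjusted over 9 members of 9e-05, 0.00355, 0.00636 and 0.0141. For PARP9 it was 0.386 (adjusted permutation p = 0.185). Without the 2 cows farthest from the median, those of the 30 kg and 72.5 kg calves, the Pearson correlations were 0.819 for DTX3L and 0.702 for PARP14.

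**Figure D4:**
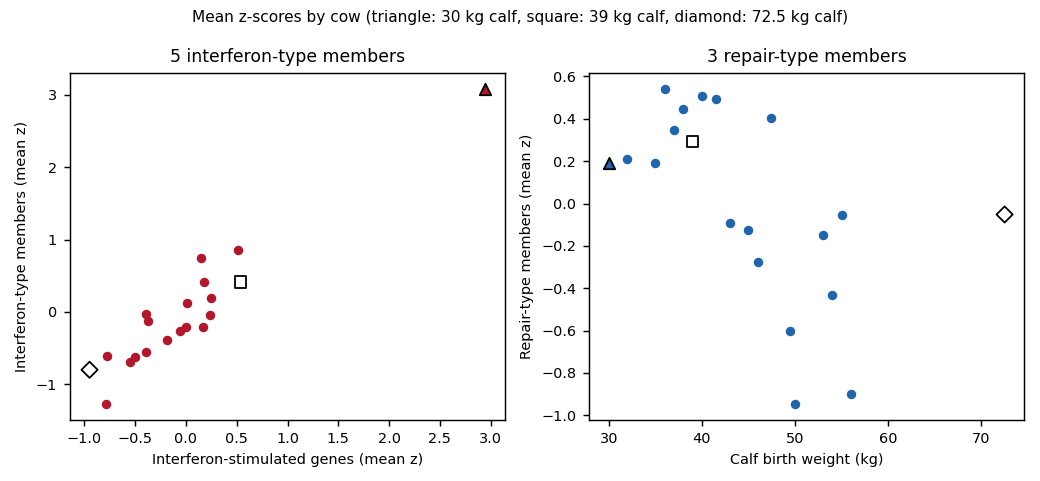
Left, mean z-score of the 5 interferon-type members against that of 36 interferon-stimulated genes, 1 point per cow, with the 30 kg cow (triangle) at 3.08 and 2.95 and the others at 0.861 or below. Right, mean z-score of the 3 repair-type members against calf BW in kg, highest at 0.541 in the 36 kg cow and lowest at -0.946 in that of the 50 kg calf.

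Gene by gene, the same test showed which of the 36 genes rose with each member. With an FDR below 0.05 across the 20 cows these were 29 with PARP14, 28 with DTX3L, 28 with PARP10, 27 with PARP12 and 12 with PARP9. Of all genes, 0.621%, 0.609%, 0.658%, 0.504% and 0.215% were called. With PARP1, PARP2, PARP3 or PARP8, 0 of the 36 were called in either direction, against 0.805%, 0.0615%, 0.00615% and 0.166% of all genes. Without the 30 kg cow the first 5 numbers were 2, 7, 1, 2 and 1, against 0.0247%, 0.185%, 0.0308%, 0.0123% and 0.0308% of all genes. That cow had the highest level of 34 of the 36 genes, at a median of 2.36 times the median of the other cows. Of all genes, 5.98% were highest in this cow and 8.3% were over 1.5 times the median of the others. The exceptions, chosen after their values were seen, were DDX60, near 0 in all cows, and OAS1X, which peaked at 200 CPM in the 37 kg cow.

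The 10 genes whose course over the 20 cows was most like the mean z-score of the interferon-type members had Spearman correlations of 0.749 to 0.883. RSAD2, the antiviral enzyme viperin, came first, and the RNA sensors IFIH1, RIGI and DHX58 were among them, as were HERC5 and HERC6, the kinase EIF2AK2 and ZNFX1. These 8 genes are in the interferon-stimulated list, which holds 36 of the 16269 genes. TRANK1 and IRF2, at 0.806 and 0.791, are not in it. RSAD2 was at 249 CPM in the 30 kg cow, with a median of 27.2 CPM over the 20 cows.

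For the mean z-score of the repair-type members, the 10 genes most like it had correlations of 0.762 to 0.862, the highest over all genes. Of these 10, 0 were in the interferon lists. These lists hold 36 interferon-stimulated and 13 interferon signalling genes of 16269, so that 0 of 10 is near the share over all genes. NDUFC1, a subunit of respiratory complex I, came first, followed by NUTF2, a nuclear import factor, and OLR1, a receptor for oxidized lipoprotein. CTNND2, ISOC1, the proteasome subunit PSMD2, RPP25, the folate transporter SLC46A1, the replication fork protein TIMELESS and CDKN2AIPNL followed. The score itself averages 3 genes of which 0 of the 3 pairs were called. Of the 16268 genes fitted, PARP3 had 1 gene with an FDR below 0.05, RASA4B (FDR = 0.0371), named after its value was seen. This call was lost without the 39 kg cow, where PARP3 had 0 genes with an FDR below 0.05.

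Among genes of strand-break repair that work beside PARP1 to PARP3, such as XRCC1 and LIG3, 0 of 26 were called with PARP1, PARP2 or PARP3. Of all genes, 0.805%, 0.0615% and 0.00615% were called with these 3, so that 0 of 26 is near the share over all genes. Of 13 interferon signalling genes that passed the filter, 3 rose with DTX3L, 3 with PARP10, 2 with PARP14, 2 with PARP12 and 1 with PARP9. The numbers were 0, 1, 0, 0 and 1 without the 30 kg cow, and 3, 3, 1, 2 and 1 without the 39 kg cow. IRF1 and the sirtuin SIRT3 are listed at 0 in every cow.

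Calf BW was tested last. With edgeR's quasi-likelihood test in 19 cows, 0 of the 9 members had an FDR below 0.05, and neither did any of the 16206 genes tested (0%). At an FDR below 0.1 the count was 0 of 9 members, where 0.315% of all genes passed. DESeq2 called 0 members at an FDR below 0.05, where 1.22% of all genes passed. At an unadjusted p below 0.05 there were 4 members, DTX3L, PARP14, PARP10 and PARP2, each with a negative slope, where 13.9% of all genes passed.

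DTX3L had a slope of -0.0159 ± 0.00584 log2 per kg (SE, n = 19 cows, edgeR p = 0.0128, FDR = 0.231). PARP14 had -0.0141 ± 0.00578 (edgeR p = 0.0236, FDR = 0.276) and PARP10 -0.0134 ± 0.00565 (edgeR p = 0.0276, FDR = 0.29). The slopes of PARP12 and PARP9 were -0.00954 ± 0.00651 and -0.00526 ± 0.00402, with edgeR FDRs of 0.554 and 0.606. All 5 were negative, as were those of 53.4% of all genes, and their median was -0.0134 against -0.000719 over all genes.

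Without the 30 kg cow, the slopes of DTX3L, PARP14 and PARP10 were -0.00626, -0.00444 and -0.00319, with unadjusted edgeR p-values of 0.209, 0.361 and 0.463, so that PARP2 was the 1 member with a p below 0.05, where 13.6% of all genes passed. That of PARP12 turned to 0.00317 and that of PARP9 was -0.00142. The median over the 5 was then -0.00319. Over the 3 repair-type members, all with negative slopes in both fits, the median was -0.00444 in 19 cows and -0.00715 without the 30 kg cow, so that which type had the steeper median changed with this cow. Without the library of the 39 kg cow the slopes of DTX3L, PARP14 and PARP10 were -0.0157, -0.014 and -0.0134, and 4 members had an unadjusted p below 0.05 against 11.9% of all genes. Without both cows these slopes were -0.0054, -0.00362 and -0.00255, and 1 member passed against 11.5% of all genes.

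PARP2 behaved otherwise. Its slope was -0.0133 ± 0.00466 log2 per kg (edgeR p = 0.00952, FDR = 0.215) and -0.0161 ± 0.00493 without the 30 kg cow (edgeR p = 0.00397, FDR = 0.194). Its unadjusted p was below 0.05 in 19 of 19 fits that each left out 1 cow and so share most cows. How many of all genes did the same was not counted. In the 19 cows PARP2 ranked 714th by p of 16206 genes, of which 13.9% had an unadjusted p below 0.05. In the fits that each left out 1 cow its slopes ran from -0.0161 to -0.0106. The second of these slopes left out the 50 kg cow, whose PARP2 level was the lowest. Without the library of the 39 kg cow the slope was -0.0132 (edgeR p = 0.0133, FDR = 0.298). The slopes of PARP1 and PARP3 were -0.00333 ± 0.00283 and -0.00444 ± 0.00784, and that of PARP8 was 0.000265 ± 0.00285, with edgeR FDRs of 0.652, 0.853 and 0.981. Without the library of the 39 kg cow the slopes of PARP9, PARP12, PARP1, PARP3 and PARP8 were -0.00523, -0.00956, -0.00329, -0.00452 and 0.000262, with edgeR FDRs of at least 0.616. PARP1 and PARP8 had the narrowest 95% intervals, from -0.00931 to 0.00264 and from -0.00575 to 0.00628.

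As a description of the types, the mean z-score of the repair-type members had a Pearson correlation of -0.699 and a Spearman correlation of -0.653 with BW in the 19 cows, and that of the interferon-type members -0.403 and -0.265. In all 20 cows they were -0.553 and -0.63 for the repair-type and -0.437 and -0.359 for the interferon-type score. With the 30 kg cow left out of the 20, the Pearson correlations were -0.556 and -0.28 and the Spearman correlations -0.649 and -0.253. Of the 3 repair-type members, only PARP2 had an unadjusted p below 0.05 for its slope in the 19 cows (edgeR p = 0.252 for PARP1 and 0.578 for PARP3). PARP1 and PARP3, which the score averages with PARP2, had Spearman rho = -0.714 with each other. Correlations without the 39 kg cow were not computed for the 2 scores. The cows are shared by both scores, and the difference between them was not tested.

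**Figure D5:**
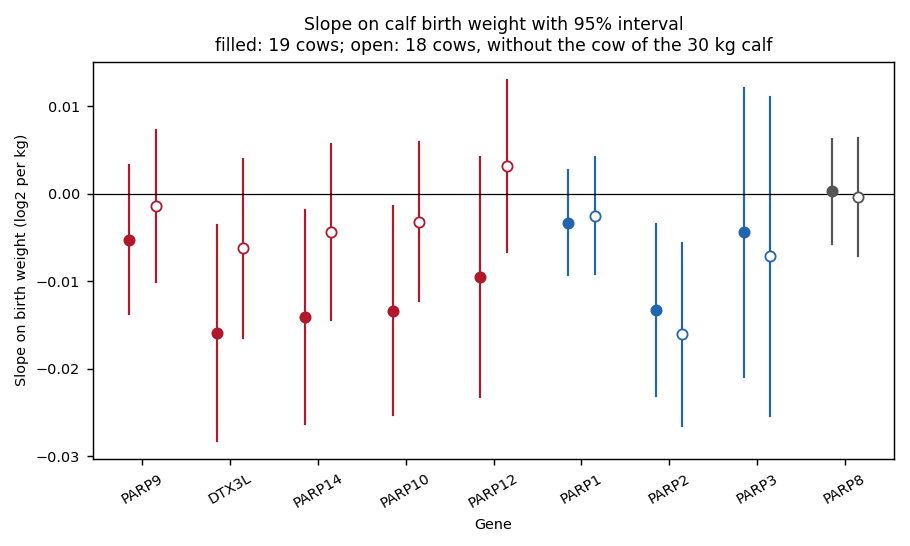
Slope of each member on calf BW in log2 per kg, with its 95% interval from edgeR's standard error, in 19 cows (filled) and in 18 cows without that of the 30 kg calf (open). Filled points of DTX3L, PARP14 and PARP10 lie below 0 with their intervals, the open ones overlap 0, and PARP2 in blue lies below 0 in both.

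Whether the 2 types differed in slope was tested directly, as the slope of each interferon-type member relative to each repair-type member in the same cow, with limma and an FDR over all genes. Of the 15 differences, 0 had an FDR below 0.05, where 0.00617%, 12.7% and 0.00617% of all genes differed from PARP1, PARP2 and PARP3. DTX3L differed from PARP1 by -0.0114 ± 0.00618 log2 per kg (limma FDR = 0.435), with a 95% interval from -0.0245 to 0.00161. It differed from PARP2 by -0.00109 ± 0.00824, with an interval from -0.0185 to 0.0163. Without the 30 kg cow, 1 of the 15 passed, PARP12 against PARP2, at 0.0194 (limma FDR = 0.0478), where 0.00619%, 25.7% and 0.00619% of all genes differed from PARP1, PARP2 and PARP3. It had an FDR of 0.0577 without both that cow and the 39 kg cow.

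With the mean z-score of the 36 interferon-stimulated genes added as a covariate, the slopes of DTX3L, PARP14, PARP10 and PARP9 on BW were -0.000351, 0.000604, 0.000961 and 0.00168, with edgeR FDRs of at least 0.915. The slope of PARP12 was then 0.0088 (edgeR p = 0.0158, FDR = 0.33), and that of PARP2 was -0.0173 (edgeR p = 0.00377, FDR = 0.249). Of the 36 genes of that list, 35 had a negative slope on BW and 25 of these an unadjusted p below 0.05, where 7.08% of all genes had both. By edgeR 0 had an FDR below 0.05 and 3 below 0.1, and by DESeq2 8 had an FDR below 0.05, where 1.22% of all genes passed. The 3 genes of edgeR were IFI6, the antiviral GTPase MX2 and the transcription factor IRF7, with slopes of -0.0586 ± 0.0124, -0.089 ± 0.0191 and -0.041 ± 0.00899 (edgeR FDR = 0.0976 each). The median of the list was -0.0291, and -0.0083 without the 30 kg cow, where 29 of 36 slopes were negative against 53.2% of all genes. The 25 genes then became 9, against 6.84% of all genes.

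Slopes on BW were also fitted for markers of blood cells. Few of these markers had an unadjusted p below 0.05, where 13.9% of all genes did. In the 19 cows the slope was negative for 7 of 8 erythroid markers (median -0.0445), 4 of 5 neutrophil granule markers (median -0.0315), 7 of 7 monocyte markers (median -0.0088), 8 of 9 neutrophil markers (median -0.0046) and 7 of 8 B cell markers (median -0.00682), against 53.4% of all genes. It was negative for 6 of 10 T cell markers (median -0.000591) and 5 of 8 proliferation markers (median -0.0032), and positive for 6 of 7 natural killer cell markers (median 0.003) and 5 of 7 platelet markers (median 0.0111). Some of these values depended on the cows included. Without the 30 kg cow, 4 of 7 natural killer cell markers (median -0.000824) and 9 of 10 T cell markers (median -0.00239) had a negative slope. The medians were then -0.00281 for B cell and -0.00776 for proliferation markers. In all 20 cows the platelet median was -0.00324. In the 19 cows an unadjusted p below 0.05 with a negative slope was found for 1 erythroid and 2 neutrophil granule markers, where 7.08% of all genes had both. Of these markers LTF (lactoferrin) had an FDR of 0.0976 by edgeR. With a positive slope, 1 neutrophil granule, 1 natural killer cell, 1 platelet and 1 eosinophil marker had an unadjusted p below 0.05. Of all 16206 genes tested, 1099 had both. The eosinophil marker was IL5RA, with a slope of 0.0531 (edgeR p = 0.0102, FDR = 0.216). Without the 30 kg cow, 0 natural killer cell markers had both. The slope of DTX3L on BW was -0.0154 with neutrophil markers and -0.0161 with T cell markers as a covariate, and the slope of PARP2 was -0.0141 and -0.013. The part of the other cell types in the slopes was not tested.

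In the rest of the pathway 0 genes had an FDR below 0.1. Of 8 other PARP genes measured, among them TIPARP, PARP4, the tankyrase TNKS and the antiviral ZC3HAV1, 5 had a positive and 3 a negative slope, and 0 had an unadjusted p below 0.05. ZC3HAV1 was at 314 to 374 CPM and its slope was 0.00236 ± 0.00241. Of 12 genes that read or remove ADP-ribose, HPF1 had the smallest p, with a slope of -0.015 ± 0.00459 (edgeR p = 0.00362, FDR = 0.175). HPF1 is the partner that directs PARP1 and PARP2 to serine, and its level was 6.91 to 11.6 CPM.

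Among 13 genes of NAD synthesis and use, NADSYN1, the last step of NAD synthesis from nicotinic acid, had a slope of 0.0161 ± 0.00556 (edgeR p = 0.00869, FDR = 0.209). NAMPT, which recycles nicotinamide to NAD, had -0.00859 ± 0.00447 (edgeR FDR = 0.412) and, like the interferon-type members, was highest in the 30 kg cow, at 64 CPM. Of 26 strand-break repair genes, 3 had an unadjusted p below 0.05, the ligase LIG4 with 0.00994, TDP1 with -0.00957 and APLF, which binds ADP-ribose chains at breaks, with -0.0125, where 13.9% of all genes passed the same limit, and 0 had an FDR below 0.1. Their median slope was -0.000659.

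Markers of whole blood were present, with 9 of 9 neutrophil, 7 of 8 monocyte, 10 of 10 T cell and 8 of 8 B cell markers at a median of at least 1 CPM. Of 9 erythroid markers 2 reached it, of 10 neutrophil granule markers 4 (most abundant LCN2), and of 3 eosinophil markers 1, IL5RA, while the other 2 were at 0 in every cow. In the 30 kg cow, the summed CPM ranked 11th from the top for neutrophil markers (most abundant CSF3R), 17th for monocyte markers, 15th for T cell markers (CD3E), 3rd for B cell markers and 19th for natural killer cell markers (GNLY). The rank was 14th for platelet markers (TUBB1), 7th for erythroid markers (HBB) and 16th for proliferation markers (MKI67). Its TMM factor was 1.008 and its total count, 24632077, was the lowest of the 20. The part of depth or cell composition in the high interferon-type levels of this cow was not tested.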

How the data were processed

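After trimming with Trimmomatic, the authors mapped reads by STAR 2.7.0b to the bosTau9 genome (ARS-UCD1.3) and used featureCounts of Subread 2.0.3 per gene. They deposited raw counts per Entrez gene, without normalization, in 1 file per cow. The labels name a SMARTer Stranded kit and the methods a Truseq-stranded kit; strand setting and treatment of multi-mapping reads are not given in the sources used here. All 37063 identifiers matched the ARS-UCD2.0 gene table, so no coordinates are printed.

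Slopes on BW used edgeR 4.0.16 (R 4.3.3), TMM and the quasi-likelihood test, keeping genes that reached 10 counts in 5 or more cows. Differences in slope used limma 3.58.1 on log2 CPM with a prior count of 2. DESeq2 1.42.0 and voom were alternatives. P-values were adjusted by Benjamini-Hochberg over all genes, and permutation tests were two-sided with 100000 resamples. On simulated counts with 200 genes changed by 0.06 log2 per kg in 19 cows (15921 genes fitted), edgeR recovered 78.5% with 6.55% of calls false. For 16206 genes, DESeq2 recovered 80.5% with 17.44% false. The steepest slope of a member was -0.0159 (DTX3L), and recovery of slopes of that size was not simulated.

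The members and gene lists were chosen with earlier results of these data known. Besides the 9 members, genes named are the 10 most like each score, up to 4 per list with the smallest p for the slope, and the most abundant gene of each marker list; XRCC1, LIG3, IRF1, SIRT3, DDX60, OAS1X and RASA4B were named outside this rule, after their values were seen. Cows are the replicates, and no batch is labelled.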

Additional observations from a re-analysis of the deposited data

How the results depend on the processing

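With another setting the number of genes with an FDR below 0.05 for the slope moved from 0 to 189 with DESeq2, 147 with no count filter, 4 in all 20 cows and 1 with total count as a covariate. The number below 0.1 moved from 51 to 454, 535, 28 and 2 in that order, and to 0 with voom, 32 with the rank of BW, 0 with neutrophil markers, 90 with T cell markers and 3 with the interferon-stimulated score as a covariate. Leaving out 1 cow at a time gave 0 to 34 genes with edgeR and 33 to 429 with DESeq2 below 0.05, and 0 to 330 and 146 to 794 below 0.1. In all of these fits 0 members had an FDR below 0.1.

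Over the fits that each left out 1 cow, 1 to 5 members had an unadjusted p below 0.05, and the median slope of the interferon-type members was between -0.01654 and -0.003195 with edgeR and between -0.01626 and -0.002693 with DESeq2. Pairs, differences between types and list medians were refitted without the 30 kg cow and without the 39 kg cow only. In these 2 fits interferon-type pairs called were 1 to 7, differences between types 0 to 1, and the median slope of the interferon-stimulated list -0.0288 to -0.0083. Differences that changed sign without the 30 kg cow ran from -0.001844 to 0.001021 for PARP9 and -0.004311 to 0.005226 for PARP12 from PARP1, and from -0.0009599 to 0.01034 for DTX3L from PARP2. From PARP3 they ran from -0.008655 to 0.002286 for DTX3L, -0.007113 to 0.003759 for PARP14, -0.006095 to 0.00534 for PARP10 and -0.001757 to 0.01139 for PARP12. Without both cows these 7 were 0.001186, 0.005806, 0.01115, 0.003311, 0.004722, 0.006153 and 0.01226, in that order. In all 20 cows PARP14 and PARP10 differed from PARP2 by -0.00109 and -0.0006967, and PARP9 from PARP3 by -0.0006256; none of these differences had an FDR below 0.05. The slope of PARP12 ran from -0.01429 to 0.003684, of PARP3 from -0.007978 to 0.001264, positive only when the 56 kg cow was left out, and of PARP8 from -0.0009061 to 0.002146. Without the 30 kg and 39 kg cows together, 2 genes were below 0.1, 1 member had an unadjusted p below 0.05, 0 pairs were called, the median slopes were -0.002545 for interferon-type members and -0.00695 for the interferon-stimulated list, and the slopes of PARP12 and PARP8 were 0.003893 and -0.000444. With the interferon-stimulated score as a covariate, 2 members had an unadjusted p below 0.05, the interferon-type median was 0.000961, and PARP9, PARP14, PARP10, PARP12 and PARP8 had slopes of 0.001677, 0.000604, 0.000961, 0.008797 and -0.000048. PARP8 had -4.21e-05 log2 per rank with the rank of BW. Of single slopes and differences, 35 changed sign, 1 newly passed the threshold and 495 kept their direction and side of it. Of counts, levels and medians, 88 moved and 350 stayed within 1.5 times, 1 SD or 1 SE, though list medians near 0 could change sign within it.

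Leaving out the 39 kg cow was planned for the slopes on BW, as 1 of the fits that each left out 1 cow. Other fits without it, fits without both cows, the covariate of interferon-stimulated genes and DESeq2 with a cow left out were added after the data were seen. No paired analysis was possible because there was 1 group.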
